A study of Mus musculus with 8 samples.

Results

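Transcripts of 10 genes that carry the signal of the receptor CD27 into the cell were followed in regulatory T cells (Tregs) cultured with or without a soluble CD27 ligand. The genes were chosen by name as the TRAF adaptors and the noncanonical NF-kB carriers downstream of CD27. They are Traf1, Traf2, Traf3, Traf5, Traf6, Siva1, Map3k14, Birc2, Birc3 and Ripk1, and all 10 have a row among the 19703 genes of the deposited table and were among the 11083 genes tested. The FcCD70 group and the untreated group both consisted of Tregs, labelled wild type, sorted from FOXP3-GFP reporter mice. All were stimulated with beads that engage CD3 and CD28 in medium with IL6, IL23 and IL1B, a mixture used to steer T cells to the Th17 fate, and were collected on day 6. FcCD70, added to the cultures of the FcCD70 group, is a soluble CD70 protein, and CD70 is the natural ligand of CD27. Neither the age and number of the mice nor whether same-numbered samples shared a mouse or a day is given in the sources used.

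The labels name 4 samples of each group, and 7 of the 8 have a column: FcCD70 numbered 1 to 3 and untreated numbered 1 to 4. In every sample the title and the treatment field contradict each other. The titles, like the column names, set the groups here, and if the titles are wrong each direction turns round. The 7 libraries held between 18159685 and 23527899 reads assigned to genes. The FcCD70 library numbered 2 stood apart: its median absolute log2 difference from the median of the other 6 libraries was 0.28, against 0.11 to 0.19 for each of those. All 7 markers of T cells and Tregs were read, with a summed level of 3446 to 4013 RPM (reads scaled to library size) in FcCD70 libraries and 3777 to 3999 RPM in untreated libraries, the lowest being FcCD70 number 2. Of the B cell markers, Ighm stood at a mean of 1697 RPM. Cd79b had 133 to 177 normalized counts (reads divided by the library's size factor) in FcCD70 libraries and 99.9 to 189 in untreated libraries, Ms4a1 had 7.86 to 20.3 in FcCD70 libraries and 15.5 to 75.9 in untreated libraries, and Cd79a, Cd22 and Pax5 averaged under 1 RPM. CD8 T and NK cell markers summed to 25.3 to 41.9 RPM in FcCD70 libraries and 19.5 to 39.1 RPM in untreated libraries, mostly Klrd1. Macrophage and dendritic cell markers, 4 of 7 with a row, summed to 3.08 to 5.25 and 4.43 to 6.34 RPM. Stromal and epithelial markers summed to 282 to 408 and 301 to 417 RPM, with Pecam1 at a mean of 342 RPM. These are bulk cultures, so fewer cells of a type and less RNA per cell cannot be told apart, and since no label says that the samples came from separate animals, the spread behind each p-value may be technical.

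CD27 has no enzymatic activity of its own. Its tail recruits TRAF2 and TRAF5, and a complex of TRAF2, TRAF3 and the ubiquitin ligases cIAP1 and cIAP2 (encoded by Birc2 and Birc3) keeps the kinase NIK (encoded by Map3k14) scarce in resting cells by marking it for degradation. When a receptor takes up the complex, NIK accumulates and activates IKK alpha (Chuk), which leads to processing of the p100 protein (Nfkb2) into p52, the partner of RELB: this is the noncanonical NF-kB pathway. Much of this control acts on proteins, and the libraries measured messenger RNA.

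None of the 10 genes passed the test between FcCD70 and untreated libraries. With limma, 0 of 10 had an adjusted p under 0.05, as had 0% of all genes tested, and 0 of 10 had an unadjusted p under 0.05, against 1.7% of all genes tested. In edgeR the adjusted and unadjusted counts were also 0 of 10 and 0 of 10, against 0% and 1.52% of all genes tested. In DESeq2 they were 0 of 10 and 0 of 10 as well, against 0.00902% and 1.27% of all genes tested, and the authors' deposited table held 0 of 10 at an adjusted p under 0.05, against 0% of its 14728 genes with an adjusted p. In each tool the unadjusted share over all genes tested lay below 0.05, the share expected with no difference at all. The tests were therefore cautious here, and why was not tested. The log2 fold changes, FcCD70 minus untreated on the log2(normalized count + 1) scale, ran between -0.15 for Traf3 and 0.07 for Birc3. Their median was -0.000946, against -0.00351 over all genes tested, and 5 of 10 lay above 0, against 49.1% of all genes tested. The median of their absolute values was 0.06, against 0.11 over all genes tested. All genes tested reach down to a mean of 10 normalized counts and were not matched to the 10 genes by level. For 9 of 10 genes the 95% interval lay within -0.5 and 0.5, a limit chosen after the values were seen and met by 52% of all genes tested. Siva1 was the exception. For 0 of 10 genes did the FcCD70 libraries all lie on 1 side of the untreated libraries, against 2.53% of all genes tested.

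**Figure D1:**
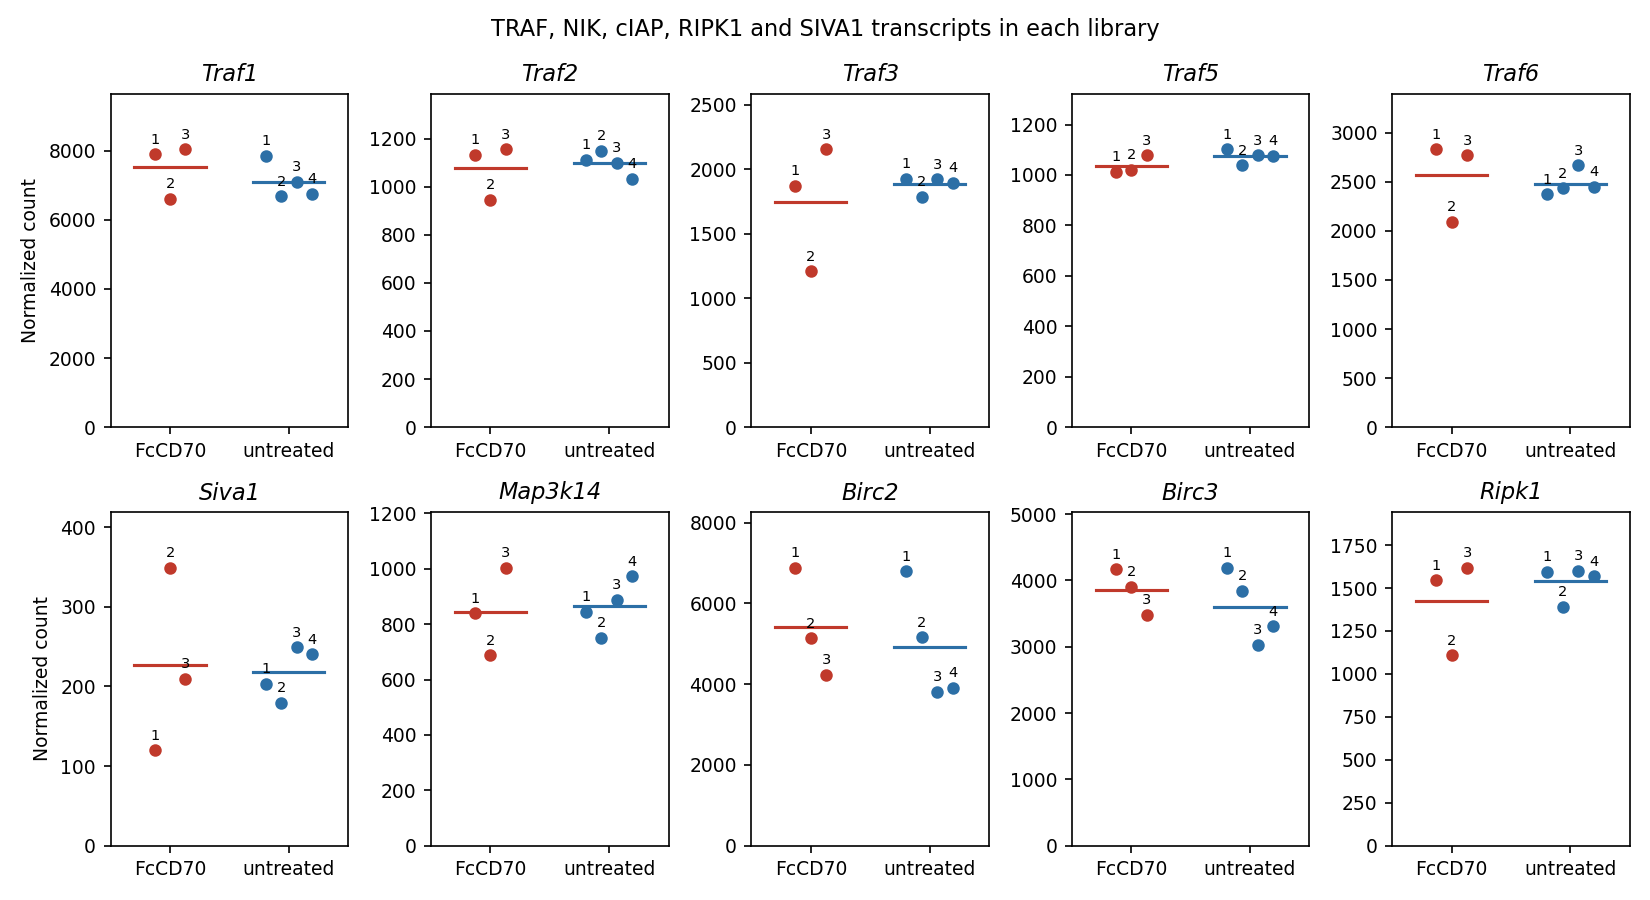
Normalized count of each gene in each library, FcCD70 in red and untreated in blue, with the replicate number above each point and a line at the group mean. The groups overlap for all 10 genes, and the FcCD70 library numbered 2 is the lowest of 7 for 6 of them.

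The levels of the 10 genes were set side by side per exon length, as RPKM (reads scaled to library size and to the kilobases of exon). Birc2 had the highest mean, 55.5 ± 14.6 RPKM (SD, n = 7 libraries), ahead of Traf1 with 40.7 ± 3.70 RPKM and Birc3 with 36.5 ± 4.82 RPKM. The ranges of these 3 overlapped in turn, and all 3 stood clear of the next gene, since the lowest Birc3 value of 29.4 RPKM exceeded the highest Traf6 value of 18.0 RPKM. Traf6 had a mean of 15.8 RPKM, Traf3 12.2 RPKM, Traf5 11.4 RPKM, Traf2 10.5 RPKM and Ripk1 8.81 RPKM. Each of these overlapped its neighbour in the order. Genes further apart did not always overlap: the lowest Traf6 value of 13.0 RPKM exceeded the highest values of Traf5 (12.1 RPKM), Traf2 (11.3 RPKM) and Ripk1 (9.57 RPKM), and the lowest Traf5 value of 10.9 RPKM exceeded the highest of Ripk1. Map3k14, the kinase gene of the noncanonical branch, had a mean of 6.44 RPKM, and Siva1 had the lowest, 4.51 ± 1.40 RPKM. The lengths are unions of all annotated exons, 2420 bases for Siva1, and can exceed the transcripts present. The order and the gaps between genes depend on that choice, and no other length was tried. The median over 11076 tested genes with a length was 8.55 RPKM, and Birc2 stood above 92.6% of those genes and Siva1 above 33.7%. Cd27, the receptor gene, had 137 ± 9.14 RPKM (n = 7) and did not pass the test, at -0.02 on the log2 scale (95% interval -0.29 to 0.26).

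**Figure D2:**
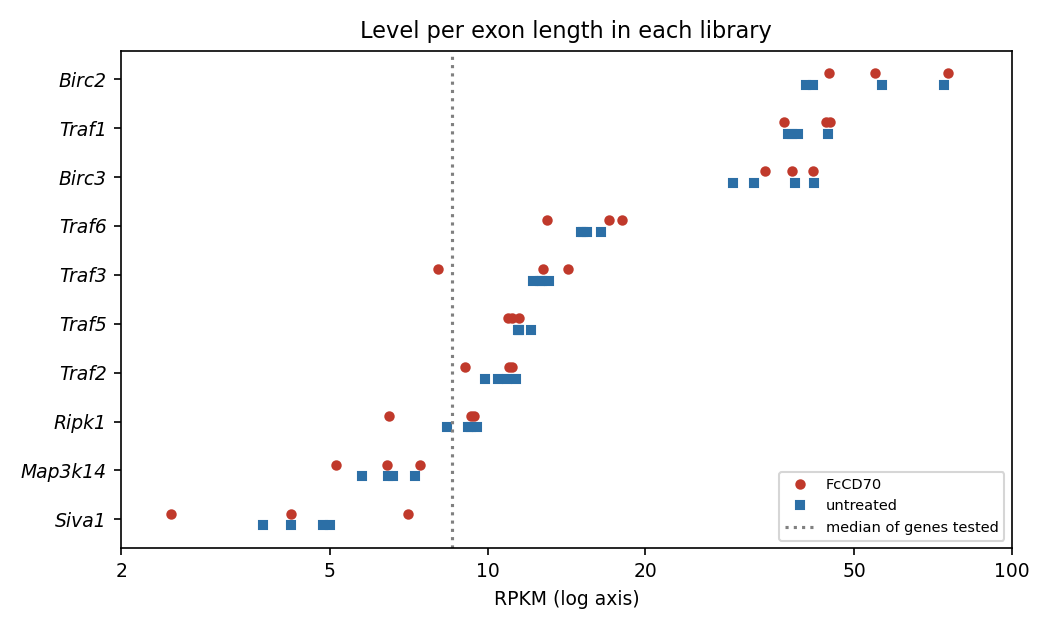
RPKM of each gene in each library on a log axis, ordered by mean, with FcCD70 in red and untreated in blue. Birc2, Traf1 and Birc3 stand apart above 29 RPKM, and the dotted line marks the median of the genes tested, 8.55 RPKM.

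Traf1 (ENSMUSG00000026875, chromosome 2, 34941750 to 34961772, minus strand, GRCm38) encodes the TRAF without a RING domain, which binds TRAF2 and is a known NF-kB target in activated lymphocytes. It had 7901, 6617 and 8049.5 normalized counts in the FcCD70 libraries numbered 1 to 3, against 7861, 6678, 7105 and 6756 in the untreated libraries numbered 1 to 4. The libraries numbered 2 were low in both groups and the ranges overlapped. Its log2 fold change was 0.06 (SE 0.13, 95% interval -0.22 to 0.34).

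Traf2 (chromosome 2, 25517982 to 25546940, minus strand) encodes the adaptor that brings the cIAP ligases to the receptor. It had 1132, 946 and 1156 normalized counts in FcCD70 libraries, against 1112.5, 1149, 1099 and 1033 in untreated libraries. Only the FcCD70 library numbered 2 lay below the untreated range, and the log2 fold change of -0.06 (95% interval -0.37 to 0.25) was 0.05 without the libraries numbered 2.

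Traf3 (chromosome 12, 111166370 to 111267153, plus strand) encodes the adaptor that holds NIK in the degradation complex. It had 1874, 1209.7 and 2156 normalized counts in FcCD70 libraries, against 1928, 1786, 1924 and 1897 in untreated libraries. The FcCD70 libraries held both the lowest and the highest of the 7 values, and the untreated values were close together, with an SD of 66.5 (n = 4) against 486 (n = 3) with FcCD70. The log2 fold change of -0.15 (SE 0.16, 95% interval -0.50 to 0.20) was 0.06 without the libraries numbered 2.

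The promoter window of Traf3 is shown because it was the 1 of 12 windows of these genes that matched the kB consensus, the site of NF-kB proteins. The 10 genes were matched by symbol to RefSeq windows of 300 bases on GRCm38.p6 (250 before and 50 after a start), and the match is in capitals on the printed strand. It begins 10 bases before the annotated start, and 8.46% of all 32851 windows hold a match on either strand.
Traf3 promoter, chr12:111166120-111166419, plus strand: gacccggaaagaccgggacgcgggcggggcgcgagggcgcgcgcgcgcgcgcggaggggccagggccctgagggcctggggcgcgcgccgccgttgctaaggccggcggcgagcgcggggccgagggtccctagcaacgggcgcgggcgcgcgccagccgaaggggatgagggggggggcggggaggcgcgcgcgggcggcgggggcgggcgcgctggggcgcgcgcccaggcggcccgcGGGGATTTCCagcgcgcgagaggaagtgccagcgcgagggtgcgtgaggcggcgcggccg

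Traf5 (chromosome 1, 191997205 to 192092559, minus strand) encodes the adaptor that binds CD27 beside TRAF2. It was the steadiest of the 10, with 1013, 1021 and 1078.5 normalized counts in FcCD70 libraries, against 1103, 1039, 1079 and 1076 in untreated libraries. It was the 1 gene of the 10 whose FcCD70 value was the lower in all 3 pairs of a number, which 9.62% of all genes tested did, while 0 of the 10 lay higher in 3 of 3, against 9.03% of all genes tested. The difference in the pair numbered 3 was -0.000534 on the log2 scale, and the log2 fold change was -0.05 (95% interval -0.34 to 0.24). Exons of Traf5 overlap those of an antisense gene, Gm26879, and the strand setting of the counting is not given, so some reads may belong to either.

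Traf6 (chromosome 2, 101678429 to 101701669, plus strand) encodes the ubiquitin ligase that carries IL-1 receptor signals, and IL1B was in the medium of both groups. It had 2834, 2095 and 2771 normalized counts in FcCD70 libraries, against 2374, 2433, 2668 and 2453 in untreated libraries. The FcCD70 libraries lay on both sides of the untreated range, and the log2 fold change was 0.03 (95% interval -0.27 to 0.33), or -0.08 without the libraries numbered 1.

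Map3k14 (chromosome 11, 103219762 to 103267472, minus strand) had 840.0, 689 and 1004 normalized counts in FcCD70 libraries, against 845, 751, 889 and 974 in untreated libraries. In both groups the library numbered 2 was the lowest, and the libraries numbered 1 and 2 lay below those numbered 3 and 4. The log2 fold change was 0.01 (95% interval -0.30 to 0.32), and -0.04 without the replicate number as a block. The ratio of Traf3 to Map3k14 RPKM was 1.99, 1.57 and 1.91 in FcCD70 libraries and 2.03, 2.12, 1.93 and 1.74 in untreated libraries. Exons of Map3k14 overlap those of 1700028N14Rik on the same strand, so reads there are uncertain.

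Ripk1 (chromosome 13, 34002363 to 34037147, plus strand) encodes the kinase and scaffold that links TNF receptors to NF-kB and to cell death. It had 1546, 1108 and 1619 normalized counts in FcCD70 libraries, against 1596, 1391, 1600.4 and 1568 in untreated libraries. The library numbered 2 was the lowest in both groups. The log2 fold change was -0.12 (95% interval -0.41 to 0.18), and -0.01 without the libraries numbered 2. Its exons overlap Serpinb6a on the opposite strand and the pseudogene Gm17084, so its counts are uncertain.

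Siva1 (chromosome 12, 112644679 to 112649149, plus strand), whose protein binds the CD27 tail and promotes apoptosis, was the lowest and the most scattered. It had 120.1, 349 and 209.9 normalized counts in FcCD70 libraries, against 204, 179.6, 249.6 and 240.2 in untreated libraries. The FcCD70 libraries held the lowest and the highest value, 2.91-fold apart. By pair, FcCD70 minus untreated, the log2 difference was -0.76 for number 1, 0.96 for number 2 and -0.25 for number 3. The log2 fold change of -0.02 (SE 0.30, 95% interval -0.69 to 0.66) was therefore the least precise of the 10. Without the libraries numbered 2 it was -0.50, and without those numbered 1 it was 0.35, with 1 pair fewer in each.

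**Figure D3:**
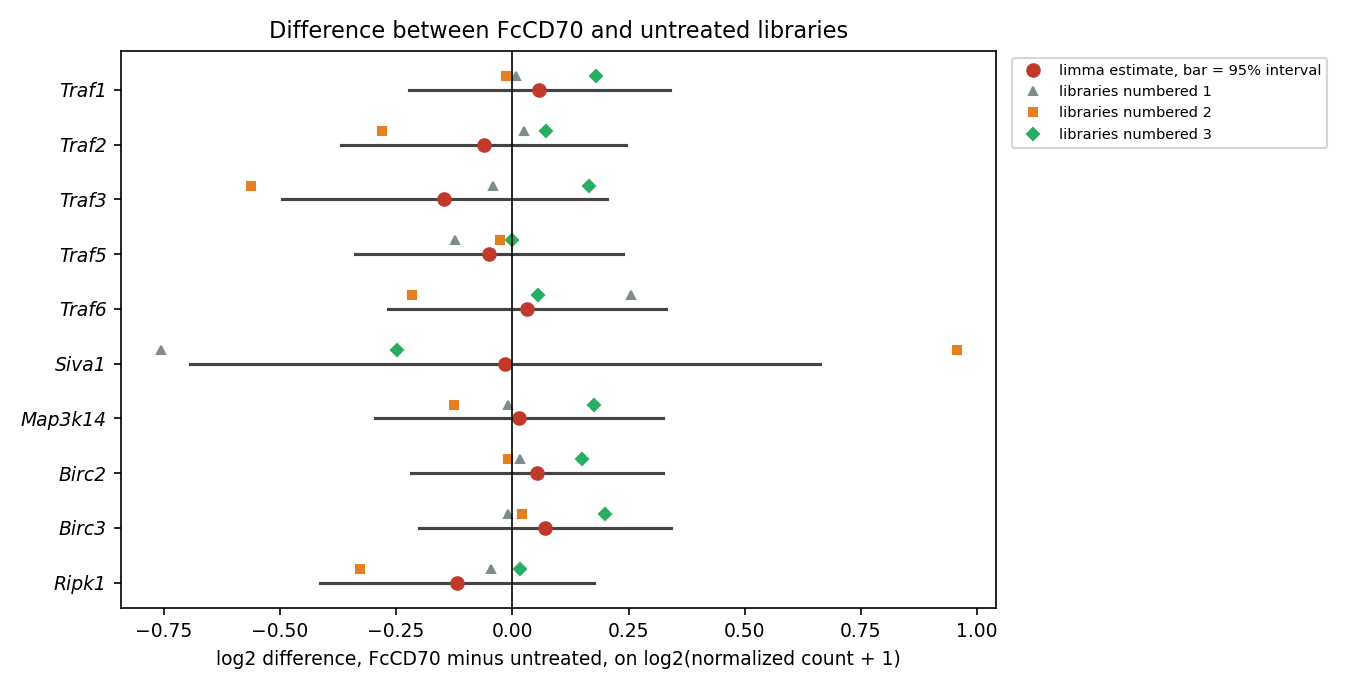
Log2 difference between FcCD70 and untreated libraries for each gene: the limma estimate with its 95% interval, and above it the difference within each same-numbered pair. All 10 intervals include 0, and the pair numbered 2 lies lowest for Traf1, Traf2, Traf3, Traf6, Map3k14, Birc2 and Ripk1 and highest for Siva1.

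In the FcCD70 library numbered 2, 6 of the 10 genes had their lowest value of the 7 libraries: Traf1, Traf2, Traf3, Traf6, Map3k14 and Ripk1. Siva1 had its highest value there. Over all genes tested this library was the lowest for 28.4% and the highest for 27.3%, so it was often extreme in either direction. Its summed T cell and Treg markers were also the lowest of the 7, at 3446 RPM against 3777 to 4013 RPM in the other 6. The markers did not move one way: Foxp3, which defines Tregs, had 2788 normalized counts there against 4811 to 6585 in the other 6, while Cd3g, a chain of the T cell receptor complex, had 15946 against 10699 to 12926. Both were singled out after their values were seen. The part of this in the 6 low values was not tested.

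Birc2 and Birc3 lay higher in every library numbered 1 or 2 than in any numbered 3 or 4, but neither passed the test of the replicate number. Birc2 (ENSMUSG00000057367, chromosome 9, 7818227 to 7837064, minus strand) encodes cIAP1, and Birc3 (ENSMUSG00000032000, chromosome 9, 7848699 to 7873186, minus strand) encodes cIAP2, a ligase of the same family whose gene is a known NF-kB target. The genes are neighbours on the same strand, 11634 bases apart. As paralogs they can have reads that match both, so how the authors' counting treated such reads bears on both. The number of such reads was not measured. Birc2 had 6885.5, 5131 and 4236 normalized counts in FcCD70 libraries, against 6803, 5161.5, 3815 and 3915 in untreated libraries. By pair, the log2 difference was 0.017, -0.00854 and 0.15 for numbers 1 to 3. The libraries numbered 1 were the highest, and the highest of the 7 was 1.80-fold the lowest. The log2 fold change of Birc2 was 0.05 (SE 0.12, 95% interval -0.22 to 0.32).

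Birc3 had 4167, 3904 and 3485 normalized counts in FcCD70 libraries, against 4194, 3846, 3034 and 3306 in untreated libraries. The libraries numbered 1 and 2 lay above those numbered 3 and 4 in both groups, as for Birc2, over a narrower range of 1.38-fold. The log2 fold change of Birc3 was 0.07 (SE 0.12, 95% interval -0.20 to 0.34). The ratio of Birc2 to Birc3 RPKM was 1.81, 1.44 and 1.33 in FcCD70 libraries and 1.77, 1.47, 1.38 and 1.30 in untreated libraries, so Birc2 varied more than its neighbour. Every library numbered 1 or 2 lay above every library numbered 3 or 4 for 2 of the 10 genes, against 11.1% of all genes tested. The reverse held for 1 of the 10, Map3k14, also against 11.1%. This split of the numbers was noticed in these data and is given without a test.

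A test of the replicate number itself, a limma F test in the same fit, called 0 of the 10 genes, against 0.135% of all genes tested. At an unadjusted p under 0.05 it held 1, Birc2 (adjusted p = 0.178), against 8.02% of all genes tested. In edgeR the unadjusted count was also 1, against 7.71% of all genes tested. Without the FcCD70 library numbered 2, 2 of the 10 passed, Birc2 and Birc3, against 16.5% of all genes tested. Without the untreated library numbered 2, 7 of the 10 passed, against 38.4% of all genes tested: Traf1, Traf3, Traf6, Siva1, Birc2, Birc3 and Ripk1. In both fits the numbers 2 and 4 have 1 library each, so the spread rests on the pairs numbered 1 and 3 and the calls give no firm support. In the second fit the FcCD70 library that stood apart is the sole one numbered 2. With the eighth library rebuilt from the authors' mean column 1 passed, Birc2 (adjusted p = 0.0379), against 1.06% of all genes tested. Over all alternatives the adjusted p ran from 7.77e-21 to 0.860 for Birc2 and from 0.000987 to 0.99999 for Birc3, the lowest from fits without the FcCD70 library numbered 2, which keep 1 residual degree of freedom. What the numbers stand for is not stated in the labels.

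**Figure D4:**
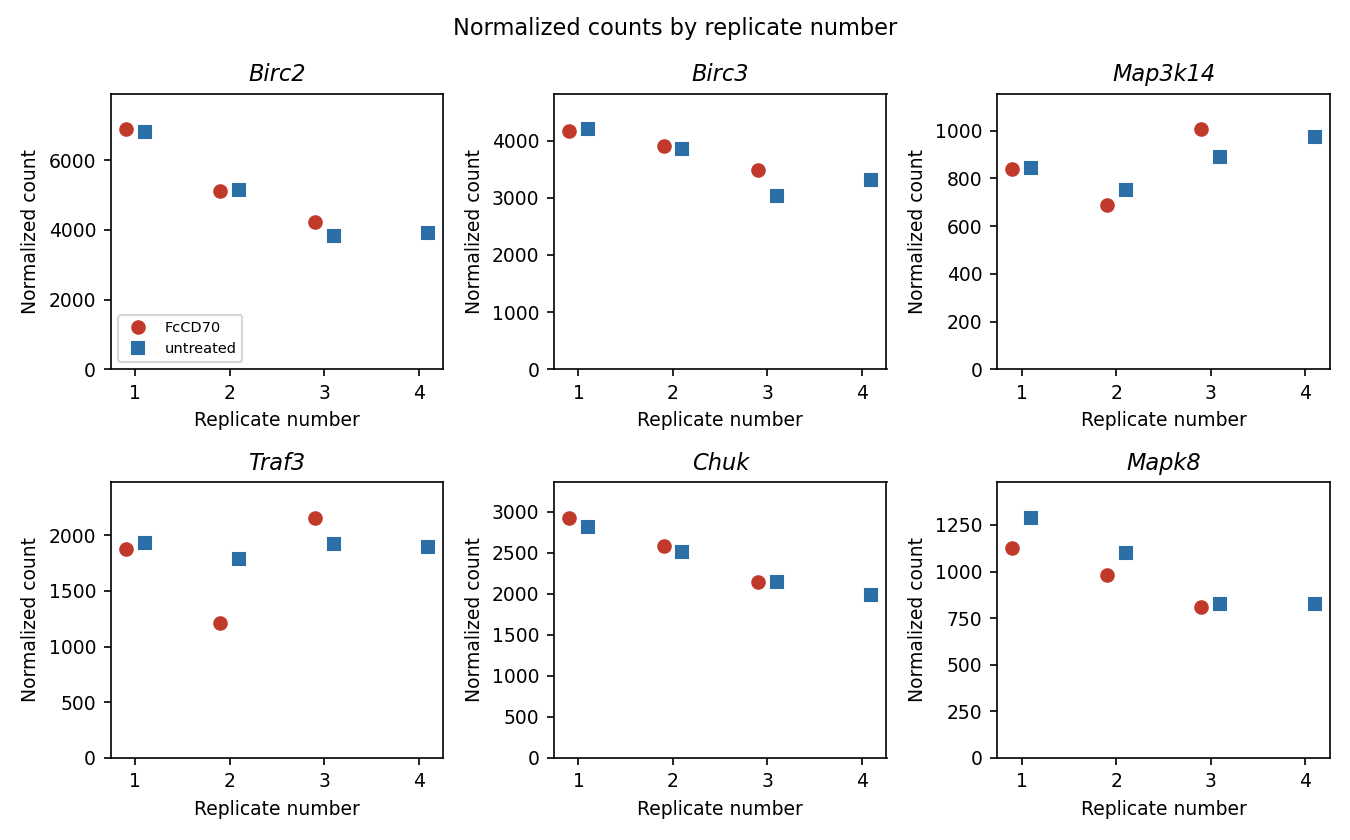
Normalized counts of 4 of the 10 genes and of Chuk and Mapk8 by replicate number, FcCD70 as red circles and untreated as blue squares. For Birc2, Birc3, Chuk and Mapk8 the libraries numbered 1 and 2 lie above those numbered 3 and 4, as for 11.1% of all genes tested. Chuk and Mapk8 were chosen by their p for the replicate number. Map3k14 splits the other way, and Traf3 has a single low value in the FcCD70 library numbered 2.

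The promoter windows of Birc2 and Birc3 are shown because these genes are neighbouring paralogs with the highest and the third highest level of the 10. Of the 2 starts listed for Birc2, the window of the outermost is printed, with 67% G and C, and its capitals mark TGACGTCA, the cyclic AMP response element. This palindrome begins 35 bases before the start, and 1.79% of all windows hold it. The Birc3 window, with 43% G and C, had the lowest share of the 10 genes and held none of the motifs searched. Also searched were the AP-1 letters TGANTCA, found in 0 of 12 windows of these genes and 7.81% of all windows, and the GC box GGGCGG, found in 9 of 12 and 35.7% of all windows. Both strands were searched, and the matches in capitals overlap no match of another motif.
Birc2 promoter, chr9:7837008-7837307, minus strand: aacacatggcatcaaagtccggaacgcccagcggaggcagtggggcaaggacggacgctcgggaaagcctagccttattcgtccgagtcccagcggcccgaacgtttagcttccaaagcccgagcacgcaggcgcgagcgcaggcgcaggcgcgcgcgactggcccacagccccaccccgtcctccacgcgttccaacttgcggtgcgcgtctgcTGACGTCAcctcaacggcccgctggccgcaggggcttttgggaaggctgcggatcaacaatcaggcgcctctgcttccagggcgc
Birc3 promoter, chr9:7873121-7873420, minus strand: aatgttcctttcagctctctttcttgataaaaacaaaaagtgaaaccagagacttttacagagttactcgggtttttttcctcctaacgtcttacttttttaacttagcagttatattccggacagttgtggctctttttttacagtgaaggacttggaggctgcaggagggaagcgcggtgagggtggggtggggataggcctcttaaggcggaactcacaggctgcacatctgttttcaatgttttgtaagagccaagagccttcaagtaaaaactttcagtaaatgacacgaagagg

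Around these 10 genes, 0 members of the other pathway lists passed the FcCD70 comparison in either direction. The receptors and ligands that recruit TRAFs (11 tested of 16) had -0.02 as the median of their log2 fold changes. Tnfrsf14, the receptor HVEM, had their smallest p, at -0.34 (95% interval -0.81 to 0.13). It had 1437, 629 and 1306 normalized counts in FcCD70 libraries, against 1458, 1318, 1241 and 1309.9 in untreated libraries, so the FcCD70 library numbered 2 alone was low. The other TRAF and TRAF-binding genes (10 tested of 11) also had a median of -0.02. Traip, a ubiquitin ligase that binds TRAFs and acts in DNA replication, had their smallest p, with 89.1, 141.5 and 51.1 normalized counts in FcCD70 libraries and 204, 174.6, 68.9 and 107.9 in untreated libraries. It lay lower with FcCD70 in every pair, as did 9.62% of all genes tested. Traip was the 1 of 10 in its list with an unadjusted p under 0.05, against 1.7% of all genes tested. Since it was named for its p, its pairs are no separate support. Its log2 fold change was -0.64 (95% interval -1.25 to -0.02, adjusted p = 0.9998).

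The rest of the noncanonical pathway (8 tested of 9) had a median of 0.04, with 5 genes above and 3 below 0. Relb, the NF-kB subunit that pairs with p52, had the smallest p of this list. It had 1428, 1706 and 1196 normalized counts in FcCD70 libraries, against 1390, 1171, 1015 and 982 in untreated libraries. It lay higher with FcCD70 in 3 of 3 pairs, as did Chuk and 9.03% of all genes tested, although the ranges overlapped. Relb was named for its p in the same comparison, so its pairs are no separate support. The estimate for Relb was 0.27 on the log2 scale (95% interval -0.04 to 0.59, adjusted p = 0.9998). Chuk, the gene of IKK alpha, had 2926, 2581 and 2145 normalized counts in FcCD70 libraries and 2814, 2511, 2141 and 1985 in untreated libraries. It had the smallest p of the list for the replicate number without passing that test (adjusted p = 0.580), and its log2 fold change was 0.03 (95% interval -0.23 to 0.30).

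In the canonical branch (22 tested of 22) 13 genes lay above and 9 below 0, with a median of 0.02. Ube2n, the ubiquitin-conjugating enzyme used by TRAF6, had the smallest p, at 0.27 on the log2 scale (95% interval -0.07 to 0.62). Its FcCD70 value of 2432 normalized counts in the library numbered 2 stood above 1738 and 1830 in the other FcCD70 libraries and above 1517 to 1933 in untreated libraries. Tnfaip3, the deubiquitinase A20, had the smallest p of this list for the replicate number (adjusted p = 0.698). The JNK and p38 branch (12 tested of 12) had a median of -0.02. Map2k6, a kinase upstream of p38, had the smallest p, at 0.20 on the log2 scale (95% interval -0.17 to 0.58). Mapk8, the kinase JNK1, had 1125, 982 and 810.4 normalized counts in FcCD70 libraries and 1287, 1097, 825 and 827 in untreated libraries, and had the smallest p of its list for the replicate number (adjusted p = 0.466).

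The death branch with caspase inhibition (12 tested of 12) had 2 genes above and 10 below 0, with a median of -0.07. Over all genes tested, 49.1% lay above 0. An unadjusted p under 0.05 was held by 2 of 12, against 1.7% of all genes tested. The list mixes genes of death and of survival. Like the other lists, it was chosen with earlier results of these data known, so these counts are no separate support. Bcl2l1, which encodes the survival protein BCL-XL and also stands among the NF-kB targets, lay at -0.35 on the log2 scale (95% interval -0.66 to -0.04, adjusted p = 0.9998). The other, Ripk3, the necroptosis kinase, was named after its values were seen. It had 661, 663 and 809.5 normalized counts in FcCD70 libraries, against 912, 893, 884 and 944 in untreated libraries. The groups did not overlap, as for 2.53% of all genes tested, among them Bcl2l1 and Map2k6. The log2 fold change of Ripk3 was -0.34 (95% interval -0.66 to -0.02, adjusted p = 0.9998). Bid, a death agonist that caspase 8 cleaves, had the smallest p of the list for the replicate number (adjusted p = 0.712). The NF-kB target genes (13 tested of 15) had a median of 0.01, with 7 above and 6 below 0. Of these 13, 2 had an unadjusted p under 0.05, Bcl2l1 and Irf4, against 1.7% of all genes tested. Irf4, named after its values were seen, lay at -0.32 on the log2 scale (95% interval -0.63 to -0.01). Tnf had the smallest p of the NF-kB targets for the replicate number (adjusted p = 0.343). Among the receptors Tnfrsf1a, TNF receptor 1, had the smallest p for the number (adjusted p = 0.543).

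**Figure D5:**
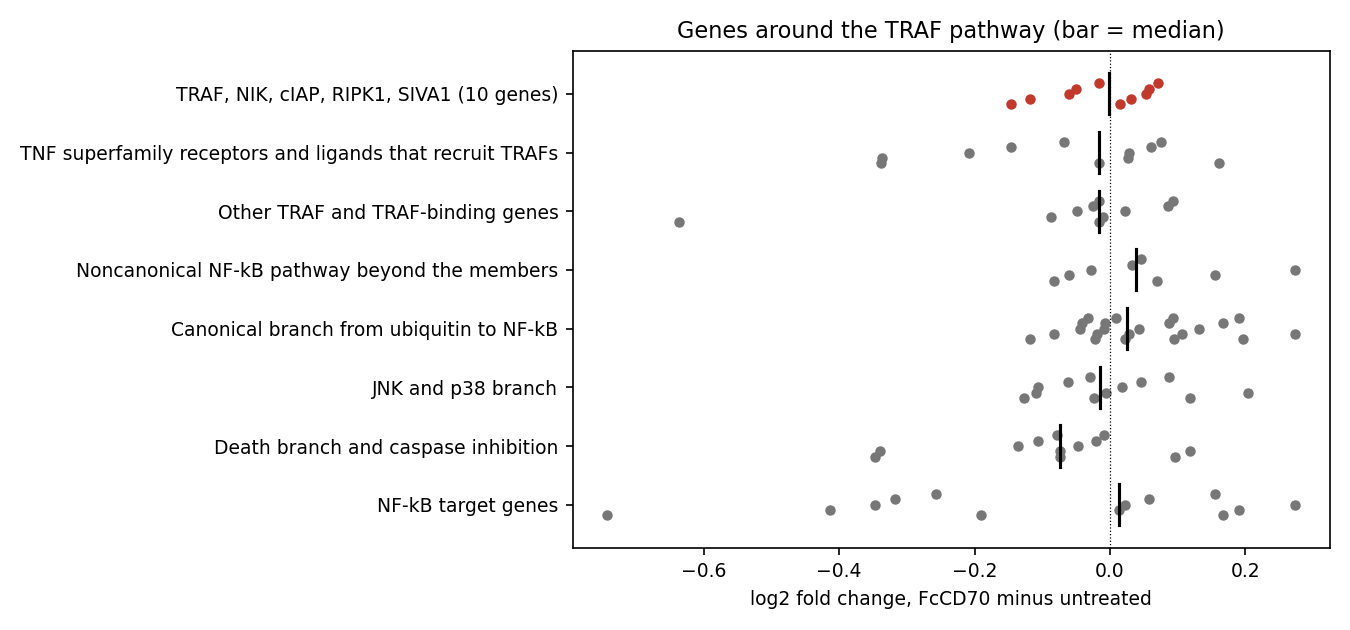
Log2 fold change, FcCD70 minus untreated, of each tested gene of 8 lists, with a bar at each list's median; some genes stand in 2 lists. The 10 genes, in red, lie between -0.15 and 0.07, and the medians of the lists lie between -0.07 and 0.04.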

How the data were processed

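Per the labels' protocols, poly(A) RNA of cultured Tregs was sequenced from stranded TruSeq libraries. Per the submitters' processing notes, the tools were TopHat2, SAMtools, HTSeq and DESeq2 and the build was GRCm38.p4. The deposited library columns are a signal: the authors scaled read counts by a size factor for each library. Every value was a multiple of its library's step (100% within a tolerance of 0.01), which gave back the reads. The authors' log2 fold changes, the deposited score (Wald statistic) and the deposited p-values cover 8 libraries and run from untreated minus FcCD70. The FcCD70 library numbered 4 follows from the mean column and entered 1 alternative only.

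The main test was limma (3.58.1, with trend) on the log2 of the deposited value plus 1, for genes whose mean was at least 10, with the replicate number as a block because the deposited table is named as paired, and with Benjamini-Hochberg adjustment over all genes tested. The 3 libraries of FcCD70 and their untreated partners carry the fold change, with 2 residual degrees of freedom. Because the columns were not raw counts, edgeR (4.0.16) and DESeq2 (1.42.0) on recovered reads were alternatives. Lengths are unions of exons in GENCODE M21 (GRCm38). Each library's floor of 3 reads is 2.61 to 3.37 normalized counts, and covers counting error only. Named genes are the 10, Cd27 and, of each list, the gene with the smallest p in each test. The 10 genes and the lists were chosen with earlier results of these data known. The tests were tried on simulated data in which no library stood apart. The FcCD70 library numbered 2 does so here, so that trial does not vouch for the tests on these data. 1 B cell marker is not reported here.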

Additional observations from a re-analysis of the deposited data

Results flagged for a closer look

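Among the 4 untreated libraries Ripk1 had 1391 normalized counts in the one numbered 2, against 1568 to 1600.4 in the other 3. The gap to the nearest of them was 0.848 of the whole range, above Dixon's critical value for 4 samples. Of the 10 genes and Cd27, Ripk1 was the 1 flagged, and chance flags about 1 in 20 groups. The FcCD70 library numbered 2 also had the lowest Ripk1 value of its group.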

How the results depend on the processing

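The count of genes called in the FcCD70 comparison, 0, was also 0 with no replicate block, with a pseudocount of 0.5, without the filter, with TMM scaling, in edgeR and with 8 libraries. DESeq2 called 1 (Il17f), and leaving out libraries gave 0 to 19, the highest without both libraries numbered 2. In 180 values of the 10 genes over 18 alternatives 0 passed and the smallest adjusted p was 0.648. The sign was kept in 157, and in all alternatives for Traf5 and Birc3 (leave-out ranges -0.079 to -0.013 and 0.0063 to 0.19). Dropping the filter or the untreated library numbered 4 left every estimate unchanged, so part of the kept signs was fixed in advance. The sign turned for Map3k14 without the replicate block (-0.045) and with 8 libraries for Traf2 (0.012) and Siva1 (0.016). Leaving out libraries gave -0.00303 to 0.17 for Traf1, -0.13 to 0.059 for Traf2, -0.32 to 0.094 for Traf3, -0.081 to 0.18 for Traf6, -0.50 to 0.35 for Siva1, -0.18 to 0.094 for Map3k14, -0.038 to 0.32 for Birc2 and -0.23 to 0.043 for Ripk1. Their causes were not tested, and fits with the block but without a number keep 2 pairs and 1 residual degree of freedom. The replicate number test called 15 genes, 11 with a pseudocount of 0.5, 0 without the filter and in edgeR, 2 with TMM scaling (Kit and Gzmb), 117 with 8 libraries and 29 to 4261 with a library left out, so its counts depend on single libraries, most on those numbered 2 (1827 without the FcCD70 one, 4261 without the untreated one). Deviations from the group means correlated over 11083 genes at 0.30, 0.01 and 0.43 for the pairs numbered 1, 2 and 3, but also at 0.26 for FcCD70 number 1 with untreated number 2 and 0.35 for FcCD70 number 3 with untreated number 4. FcCD70 numbers 1 and 3 correlated best with their own number. FcCD70 number 2 did not, at -0.04 to 0.03 with every untreated library, so the values do not settle whether same-numbered libraries are pairs.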
